A study of Homo sapiens with 12 samples.

Results

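Androgen receptor induced genes are described here in 22Rv1, a human prostate cancer cell line, after siRNA against ETS1 or ZNF783. The set has 32 genes, fixed by symbol as a list of reported androgen receptor targets, and all 32 were found in both deposited count tables, which hold 61860 genes each. It was chosen with earlier results of these data known, so shares of called genes set beside those of all genes are descriptions only. The 12 RNA-seq libraries form 4 groups of 3: 22Rv1 cells given ETS1 siRNA, the control cells of that experiment, 22Rv1 cells given ZNF783 siRNA, and the control cells of that second experiment. What the control cells were given is not stated in the labels. No group is labelled as given or deprived of androgen, and all cells grew in medium with serum, so induction by androgen itself was not measured. The study concerns phosphorylated RB, ETS1 and how prostate cancer responds to CDK4/6 inhibitors. The sequence of each siRNA and the harvest time are not stated in the labels either, 22Rv1 is a single line, and the labels do not say that replicates came from separate cultures. P-values therefore measure the spread between these libraries, which may be technical.

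The androgen receptor is a nuclear receptor that leaves its HSP90 chaperone complex when it binds androgen, enters the nucleus, and binds inverted repeats of a hexamer close to AGAACA together with pioneer factors such as FOXA1, HOXB13 and GATA2. In luminal prostate cells its targets include secreted proteases of the kallikrein family, surface proteins and metabolic enzymes, and prostate-specific antigen, the product of KLK3, is the clinical readout of receptor activity. ETS1 belongs to a family of factors that bind GGAA cores, and ZNF783 is a zinc finger protein.

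The proximal promoters of KLK3 and KLK2 are shown because these neighbouring, closely related genes are the classic readouts of the receptor, and KLK3 fell in 1 of the experiments while KLK2 did not pass the test in either. Both sequences come from RefSeq on GRCh38.p14, run 5′ to 3′ on the plus strand and end at the base before the annotated start. Capitals mark the 15 bases closest to the palindromic androgen response element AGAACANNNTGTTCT.
KLK3 promoter, chr19:50854665-50854914: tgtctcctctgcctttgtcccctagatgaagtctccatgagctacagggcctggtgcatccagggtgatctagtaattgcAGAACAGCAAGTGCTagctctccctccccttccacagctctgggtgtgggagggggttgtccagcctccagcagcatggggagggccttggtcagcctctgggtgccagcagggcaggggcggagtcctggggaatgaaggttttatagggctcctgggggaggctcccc
KLK2 promoter, chr19:50873189-50873438: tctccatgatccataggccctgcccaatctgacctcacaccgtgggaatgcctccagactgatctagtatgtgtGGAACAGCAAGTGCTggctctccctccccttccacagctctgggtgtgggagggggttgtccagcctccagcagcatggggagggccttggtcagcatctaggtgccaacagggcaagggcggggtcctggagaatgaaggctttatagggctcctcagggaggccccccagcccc
The KLK3 match holds 10 of the 12 fixed letters and lies from -170 to -156 relative to the start, and the KLK2 match holds 9 of 12 and lies from -176 to -162. A match at least as good was found in 1.18% of all promoter windows for KLK3 and in 9.17% for KLK2. In a global alignment the 2 promoters were identical at 205 of 259 columns (79.2%). The KLK2 gene model of GENCODE 29 begins upstream of the RefSeq start used here.

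Promoter windows of 300 bases, 250 before to 50 after the start, were listed for 22 of the 32 genes, in 37 windows. The hexamer AGAACA, searched on both strands, was present in 6 of these 37 windows, from 5 genes (FKBP5, IQGAP2, KLK3, PMEPA1 and TRPM8), and in 14.8% of all 35116 windows. The ETS-type motif CCGGAAG, also searched on both strands, was in 6 of the 37, from ABCC4, EAF2, HPGD, PMEPA1 and STEAP2, and in 10.3% of all windows. The full 15-letter element was in none of the 22 genes and in 1 window overall. These matches are descriptions of letters, and binding was not tested.

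The libraries held 13518177 to 48996691 counts. A gene with 3 counts or fewer is treated as undetected, which is 0.0612 to 0.222 CPM (counts scaled to a library of 1000000), counting error only. ETS1 itself had 0, 3 and 0 counts in its siRNA libraries and 0, 1 and 0 in the controls, and 0 or 1 in the other 6 libraries. All these are at or under the floor, so the targeted gene does not check the labels of the ETS1 libraries. A knockdown of ETS1 RNA could not be shown either, because the RNA was undetected in the controls too. Results with ETS1 siRNA are therefore those of cells given this siRNA, not of a measured loss of ETS1. ZNF783 fell with its own siRNA by 0.31 on the log2 scale (edgeR adjusted p = 2.46e-05). With ETS1 siRNA its log2 fold change was -0.38 over 6 libraries (adjusted p = 0.258) and -0.23 without siRNA replicate 1 (adjusted p = 0.00146). ETS1 siRNA replicate 1 stood apart: a chi-square per degree of freedom over genes was 35.6 and 34.3 between it and the other 2 ETS1 siRNA libraries, against 1.32 to 2.70 for all other replicate pairs. The main ETS1 results are therefore given with and without that library. Without it only 2 siRNA libraries are set against 3 controls, and this library was singled out after its deviation was seen. Small p-values from that fit rest on the closeness of these few libraries. All 5 luminal epithelial markers were above 1 CPM in every group, while markers of basal cells, endothelium and leukocytes summed to at most 1.19 CPM, with none of them at a group mean of 1 CPM.

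In the controls, the 32 genes ran from the detection floor to high expression. Per kilobase of exon, KLK4, a secreted serine protease, stood highest in the controls of the ETS1 experiment, at 99.7 ± 3.78 CPM per kilobase (mean ± SD, n = 3). UBE2T, a ubiquitin-conjugating enzyme of DNA repair, followed at 88.7 ± 1.98. ZBTB10, a zinc finger protein, and FKBP5, a co-chaperone of steroid receptors, came next at 74.3 ± 1.28 and 73.9 ± 0.826, and did not differ from each other beyond their spread. In the controls of the ZNF783 experiment the same 4 genes were highest, with UBE2T at 81.1 ± 1.88 and KLK4 at 78.7 ± 5.05, again within their spread. KLK3 and KLK2 stood far lower, at 3.70 ± 0.112 and 4.82 ± 0.200 CPM per kilobase in the ETS1 controls and at 2.998 ± 0.452 and 3.12 ± 0.0966 in the ZNF783 controls. At the low end, TRPM8 (a cold-sensing channel), HERC3 (a ubiquitin ligase), ADAM7 (a membrane protein of the epididymis) and STEAP4 (a metalloreductase) lay below 0.14 CPM per kilobase in both control groups. TRPM8 and ADAM7 failed the expression filter in both experiments, and STEAP4 and HERC3 failed it in the ZNF783 experiment, which left 30 and 28 genes tested. A second gene identifier that carries the symbol HERC3 had 0 counts in all libraries, and the HERC3 value is uncertain.

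**Figure D1:**
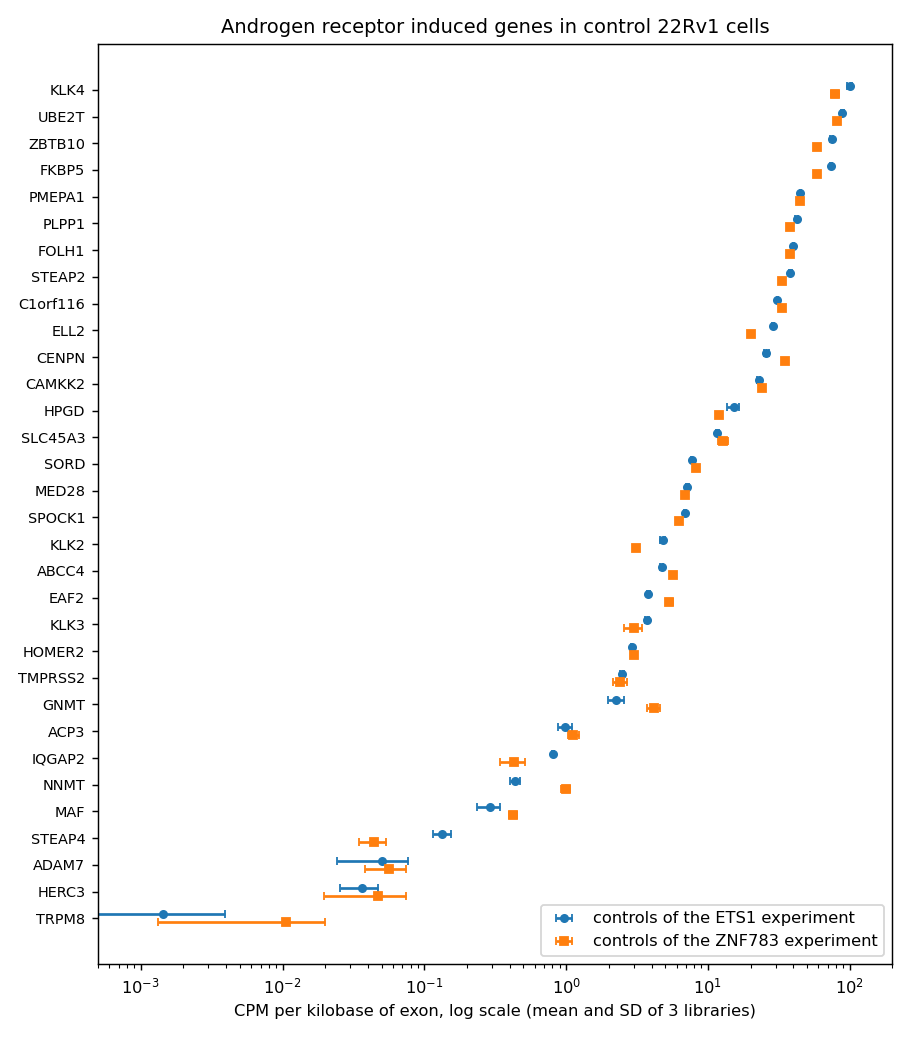
Levels of the 32 genes in the 2 control groups, as CPM per kilobase of exon on a log axis; points are means and bars SDs of 3 libraries (the lower bar of TRPM8 runs past the axis). KLK4, UBE2T, ZBTB10 and FKBP5 are highest in both groups and TRPM8, HERC3, ADAM7 and STEAP4 lowest; no test was made between the control groups.

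The ETS1 experiment asks whether the genes changed in cells given ETS1 siRNA. With all 6 libraries edgeR called none of the 30 tested genes, against 0.0461% of all genes (9 of 19542), with 8 of the 30 at an unadjusted p under 0.05. Here and below the share of all genes at that unadjusted level is not given, so these counts have no background. DESeq2 on the same libraries called 3, KLK4, PLPP1 and TMPRSS2, all lower, against 3.76% of all genes in either direction and 1.92% lower. Other settings over 6 libraries called 1 gene without an expression filter (0.629% of all genes) and 9 with limma-voom, which weights libraries by quality (19.1%), and the fit of all 12 libraries called 7 (9.57%). Without ETS1 siRNA replicate 1, edgeR called 11 of 31 genes (ADAM7 then passed the filter), against 23.0% of all genes: 5 rose (9.96% of all genes) and 6 fell (13.0%). The genes that rose were CENPN, ELL2, FOLH1, SLC45A3 and STEAP2, and those that fell were KLK4, PLPP1, TMPRSS2, MAF, FKBP5 and CAMKK2. The median log2 fold change over the tested genes was -0.02 without that library, against 0.00 (-0.00417) over all genes. Over all 6 libraries the siRNA and control groups did not overlap for 6 genes that were higher and 7 that were lower, against 17.5% and 17.8% of all genes (35.3% in either direction).

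The ZNF783 experiment asks the same for ZNF783. edgeR called 12 of 28 tested genes, against 25.1% of all genes: 5 rose (11.3% of all genes) and 7 fell (13.8%). ZBTB10, ELL2, FKBP5, SLC45A3 and SORD rose, and KLK3, EAF2, SPOCK1, PLPP1, FOLH1, KLK4 and PMEPA1 fell. The median log2 fold change of the tested genes was -0.02, against 0.00 (0.00172) over all genes. The groups did not overlap for 7 genes that were higher and 8 that were lower, against 18.3% and 19.8% of all genes (38.2% in either direction). The fit of all 12 libraries called 4 of 30 (EAF2, FOLH1, PLPP1 and ZBTB10), against 4.21% of all genes. DESeq2 called 9 of the 28, against 15.4% of all genes, and not KLK4, SLC45A3 or SORD. Scaling by library size alone called 15 (25.5% of all genes), 8 of them higher and 7 lower. Upper-quartile scaling called 14 (25.1%). Of the called genes ELL2 reached 116.4% of the control level and KLK3 70.2%. With an offset for GC content and gene length ELL2 stood at 110.5% and KLK3 at 72.6%, and SLC45A3 (118.4%) and EAF2 (69.9%) then lay furthest from the controls.

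**Figure D2:**
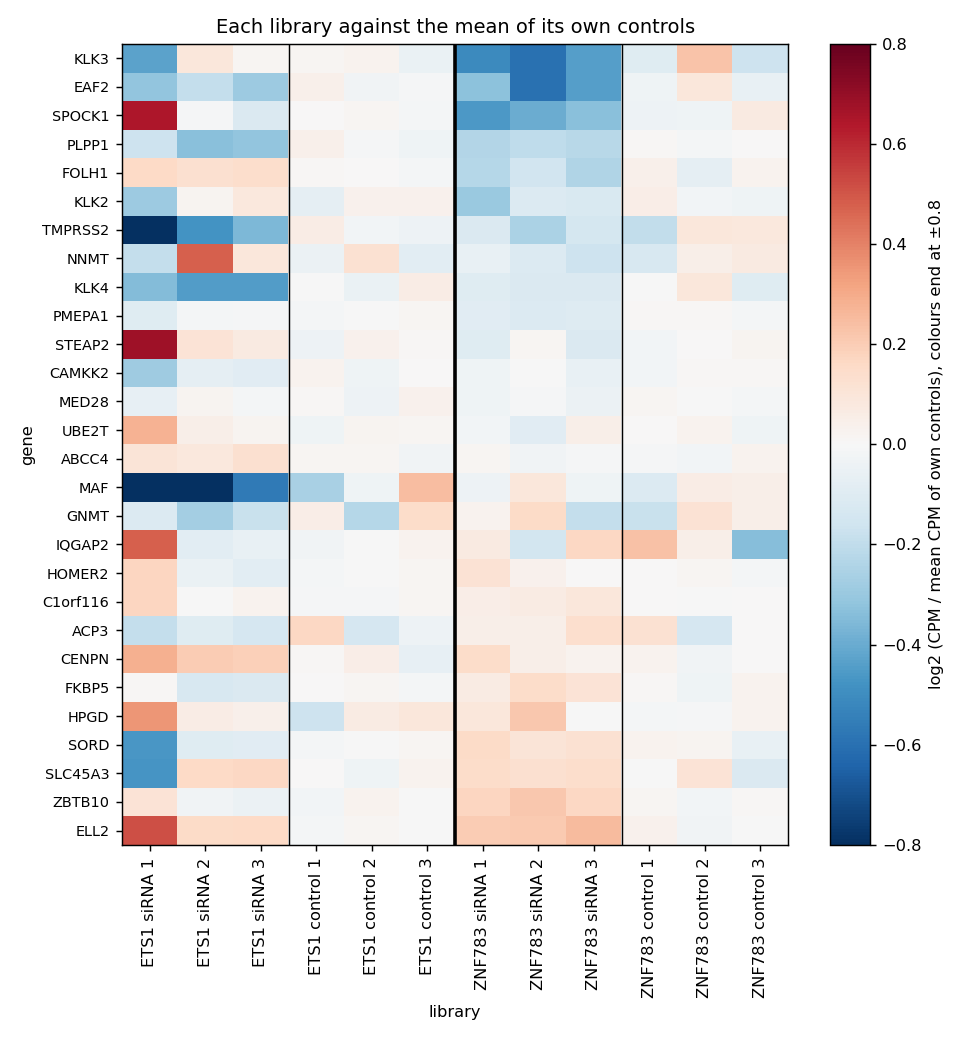
Each of the 12 libraries (columns) against the mean of its own controls for the 28 genes tested in the ZNF783 experiment (rows, ordered by their change there), as log2 ratio of CPM with colours ending at ±0.8. ETS1 siRNA replicate 1 departs from replicates 2 and 3 for SPOCK1, STEAP2, SLC45A3 and KLK3, while KLK4, PLPP1 and TMPRSS2 are lower in all 3.

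Among the secreted enzymes, the 3 kallikreins and prostatic acid phosphatase, the 2 siRNAs gave different members the larger change. KLK3 had 9.77, 9.21 and 10.3 CPM with ZNF783 siRNA and 13.0, 16.3 and 12.4 CPM in its controls. All 3 siRNA libraries lay below all controls, though control replicate 2 was higher than the other 2. KLK3 fell by 0.51 on the log2 scale (SE 0.096, edgeR adjusted p = 6.4e-05), a call that just ended with all 12 libraries fitted together (0.0536). With ETS1 siRNA the gene had 12.8, 18.3 and 17.4 CPM against 17.4, 17.5 and 16.6 CPM in the controls, so that replicate 1 was low, replicate 2 just above the controls and replicate 3 among them. Its log2 fold change there was -0.08 over 6 libraries (adjusted p = 0.741) and 0.05 without replicate 1 (SE 0.060, adjusted p = 0.6).

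KLK4 showed the reverse order of sizes. It had 152, 142 and 142 CPM with ETS1 siRNA against 192, 186 and 201 CPM in the controls, with no overlap. The log2 fold change was -0.41 over all 6 libraries (SE 0.057, adjusted p = 0.0826) and -0.45 without siRNA replicate 1 (SE 0.032, adjusted p = 2.65e-17), at 73.0% of the control level. With an offset for GC content and gene length these became -0.18 (adjusted p = 0.494) and -0.35 (-0.345, adjusted p = 3.14e-14). With ZNF783 siRNA KLK4 had 142, 141 and 140 CPM against 152, 162 and 142 CPM, just below the lowest control, and fell by 0.11 (SE 0.035, adjusted p = 0.0212). That last call ended in DESeq2 (adjusted p = 0.0797), with all 12 libraries fitted together (0.265) and with the offset, where the value was 0.01 (0.00959, adjusted p = 0.865).

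KLK2, which encodes a protease that activates the KLK3 product, had 25.1, 31.3 and 32.7 CPM with ETS1 siRNA and 29.3, 31.6 and 31.5 CPM in its controls, and the groups overlapped. Its log2 fold change was -0.05 over 6 libraries (SE 0.106, adjusted p = 0.81) and 0.04 without siRNA replicate 1 (adjusted p = 0.584). With ZNF783 siRNA it had 16.2, 18.5 and 18.4 CPM against 20.7, 19.7 and 19.5 CPM. These groups did not overlap, but the value of -0.18 (SE 0.073) missed the threshold at an adjusted p of 0.0598. KLK3 and KLK2 are close copies, so reads could be split between them and both values are uncertain. Their gene models lie 803 bases apart on chromosome 19 in GENCODE 29 (50854915 to 50860764 and 50861568 to 50880567, both on the plus strand of GRCh38). That KLK2 model begins upstream of the RefSeq start used above. KLK4 lies further along (50906352 to 50910738, minus strand). ACP3, prostatic acid phosphatase, did not pass in either experiment, with log2 fold changes of -0.13 for ETS1 siRNA over 6 libraries (adjusted p = 0.516), -0.12 without siRNA replicate 1 (adjusted p = 0.545) and 0.07 for ZNF783 siRNA (adjusted p = 0.758).

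**Figure D3:**
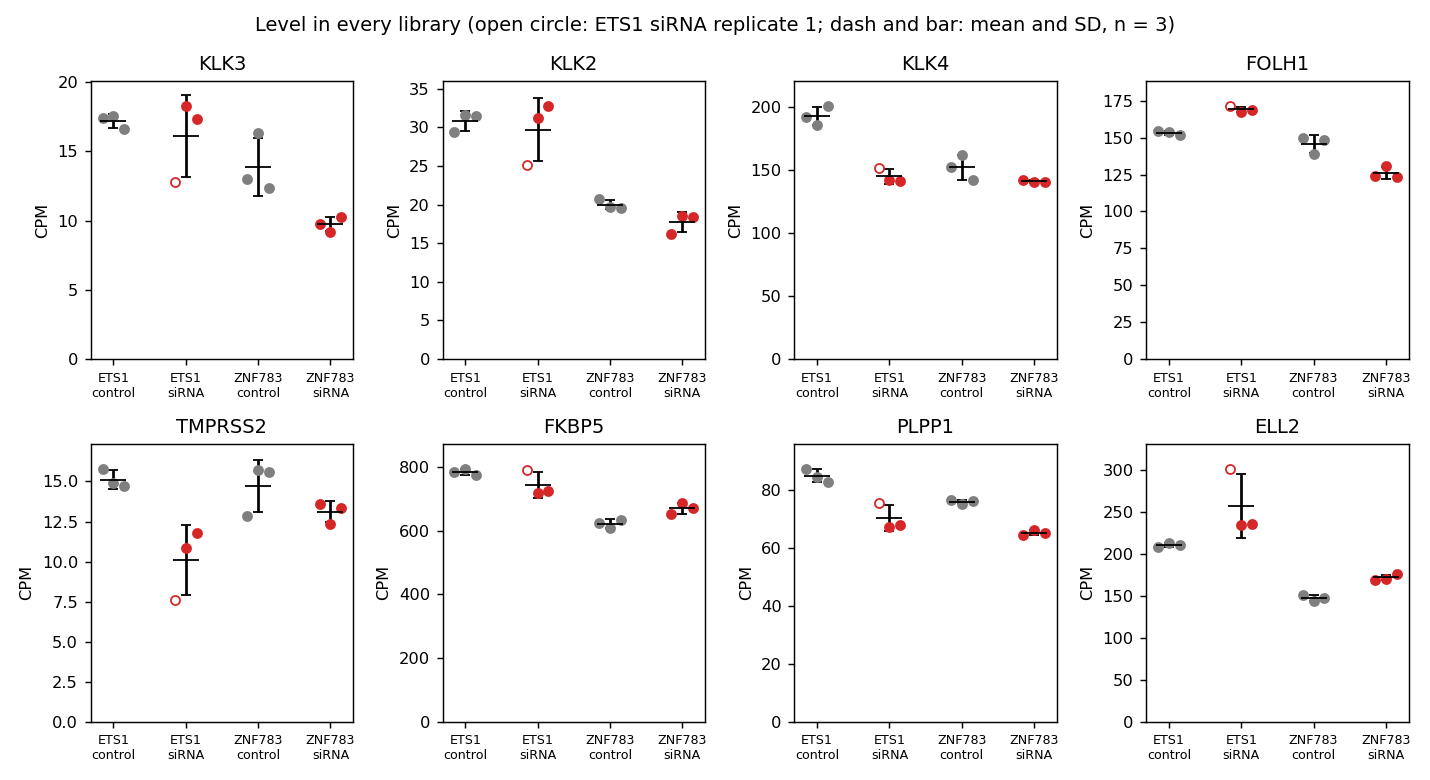
CPM in every library for 8 genes, by group; points are libraries, the open circle is ETS1 siRNA replicate 1, and dashes with bars are means and SDs (n = 3), on axes that start at 0. KLK3 lies between 9.21 and 10.3 with ZNF783 siRNA, below all its controls, whereas KLK4 shows its larger gap in the ETS1 experiment, and FOLH1 lies above its controls with ETS1 siRNA and below them with ZNF783 siRNA.

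Among membrane proteins, FOLH1 was higher with ETS1 siRNA and lower with ZNF783 siRNA. It encodes prostate-specific membrane antigen, a surface peptidase used as an imaging target, and it is also known as a gene that androgen can lower in prostate cancer cells. FOLH1 had 171, 168 and 169 CPM with ETS1 siRNA against 155, 154 and 152 CPM in the controls, so all siRNA libraries, replicate 1 included, were higher. Its log2 fold change was 0.14 over 6 libraries (SE 0.047, adjusted p = 0.211) and 0.13 without siRNA replicate 1 (SE 0.030, adjusted p = 0.00088). With ZNF783 siRNA it had 124, 131 and 123 CPM against 150, 139 and 148 CPM, all siRNA libraries below all controls. There FOLH1 fell by 0.21 (SE 0.033, adjusted p = 5.24e-06). FOLH1 (chromosome 11, 49146635 to 49208670, minus strand, GENCODE 29) has a near-identical copy in the genome, and its counts are uncertain to that extent.

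TMPRSS2 encodes a surface serine protease whose promoter is the usual partner in ETS gene fusions of prostate cancer. It had 7.63, 10.9 and 11.8 CPM with ETS1 siRNA against 15.8, 14.9 and 14.7 CPM in the controls, with replicate 1 lowest and no overlap. TMPRSS2 had a log2 fold change of -0.57 over 6 libraries (SE 0.153, adjusted p = 0.168) and -0.43 without siRNA replicate 1 (SE 0.070, adjusted p = 2.87e-06). With ZNF783 siRNA it had 13.6, 12.4 and 13.4 CPM against 12.8, 15.7 and 15.6 CPM, overlapping, with a value of -0.17 (SE 0.085, adjusted p = 0.147).

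SLC45A3, the transporter-like protein prostein, had 31.2, 48.3 and 48.5 CPM with ETS1 siRNA against 43.4, 42.2 and 44.0 CPM. Replicate 1 lay below all controls and the other 2 above them, and the log2 fold change went from -0.01 (SE 0.162, adjusted p = 0.974) to 0.16 without replicate 1 (SE 0.041, adjusted p = 0.00278), or 0.25 with the GC content and length offset as well (adjusted p = 6.35e-07). With ZNF783 siRNA it had 52.3, 51.8 and 52.1 CPM against 47.2, 51.1 and 43.6 CPM and rose by 0.14 (SE 0.048, adjusted p = 0.0241). This call ended in DESeq2 (adjusted p = 0.112) and when all 12 libraries were fitted together (0.676), and the value was 0.24 with the offset (adjusted p = 4.5e-05). STEAP2, a reductase of iron and copper, had 529, 356 and 348 CPM with ETS1 siRNA against 322, 338 and 332 CPM. Replicate 1 was far above the rest. Its log2 fold change fell from 0.31 (SE 0.157, adjusted p = 0.325) with that library to 0.08 without it (SE 0.029, adjusted p = 0.0274), and to -0.02 with the GC content and length offset as well (adjusted p = 0.559). With ZNF783 siRNA STEAP2 had 270, 291 and 267 CPM against 284, 289 and 293 CPM and a value of -0.06 (SE 0.029, adjusted p = 0.112), which passed with the offset (-0.15, adjusted p = 4.42e-05). ABCC4, an exporter of cyclic nucleotides and drugs, did not pass in either experiment, at 0.10 for ETS1 siRNA over 6 libraries (adjusted p = 0.353), 0.10 without siRNA replicate 1 (adjusted p = 0.0859) and -0.01 for ZNF783 siRNA (adjusted p = 0.928).

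Among signalling and feedback genes, FKBP5, which binds HSP90 in steroid receptor complexes, fell with ETS1 siRNA without replicate 1 and rose with ZNF783 siRNA. It had 790, 717 and 725 CPM with ETS1 siRNA against 785, 794 and 776 CPM in the controls. Replicate 1 was among the controls and the other 2 were lower, with log2 fold changes of -0.08 over 6 libraries (SE 0.055, adjusted p = 0.444) and -0.13 without it (SE 0.027, adjusted p = 0.000168). With ZNF783 siRNA it had 652, 687 and 671 CPM against 625, 608 and 634 CPM, all higher, and rose by 0.11 (SE 0.025, adjusted p = 0.00119). This call ended with the GC content and length offset (adjusted p = 0.158) and with all 12 libraries fitted together (0.273). FKBP5 is also a target of the glucocorticoid receptor.

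PMEPA1, a membrane adaptor that dampens TGF-beta signalling, had 234, 231 and 233 CPM with ZNF783 siRNA against 251, 252 and 247 CPM. It fell by 0.10 (SE 0.027, adjusted p = 0.00424), a call that just ended with the GC content and length offset (adjusted p = 0.0519) and ended with all 12 libraries fitted together (0.114). With ETS1 siRNA it had 236, 249 and 250 CPM against 249, 251 and 255 CPM, and log2 fold changes of -0.04 over 6 libraries (adjusted p = 0.657) and -0.02 without replicate 1 (adjusted p = 0.69). CAMKK2, a calcium-dependent kinase that activates AMPK, had 130, 150 and 148 CPM with ETS1 siRNA against 161, 154 and 158 CPM, with no overlap. It fell by 0.09 without siRNA replicate 1 (SE 0.031, adjusted p = 0.0306), a call that ended with the offset (adjusted p = 0.256), and had a value of -0.14 over 6 libraries (adjusted p = 0.311). With ZNF783 siRNA CAMKK2 had 163, 166 and 160 CPM against 164, 168 and 168 CPM (log2 fold change -0.03, adjusted p = 0.491).

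SPOCK1, a secreted proteoglycan, had 28.3, 29.5 and 30.8 CPM with ZNF783 siRNA against 37.7, 38.0 and 40.8 CPM in the controls, and the groups stood well apart. It fell by 0.41 (SE 0.055, adjusted p = 1.77e-07, but 0.207 with all 12 libraries fitted together), to 75.5% of the control level. With ETS1 siRNA it had 67.2, 42.6 and 39.6 CPM against 42.9, 43.4 and 42.4 CPM, with replicate 1 far above the rest. The log2 fold change there was 0.21 over 6 libraries (SE 0.189, adjusted p = 0.542) and -0.06 without replicate 1 (SE 0.043, adjusted p = 0.332). The scaffold proteins HOMER2 and IQGAP2 did not pass in either experiment.

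Of the metabolic enzymes, PLPP1, a lipid phosphate phosphatase, was lower with both siRNAs. It had 75.6, 67.4 and 68.1 CPM with ETS1 siRNA against 87.3, 84.6 and 83.0 CPM in the controls, with no overlap. PLPP1 had a log2 fold change of -0.27 over 6 libraries (SE 0.065, adjusted p = 0.147) and -0.33 without siRNA replicate 1 (SE 0.036, adjusted p = 6.48e-11). With ZNF783 siRNA PLPP1 had 64.6, 66.1 and 65.3 CPM against 76.5, 75.4 and 76.2 CPM and fell by 0.22 (SE 0.039, adjusted p = 2.72e-05). Of its exon bases 23.9% overlap MTREX on the opposite strand, and since the counting used no strand option the PLPP1 value is uncertain.

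SORD, which turns sorbitol into fructose, had 56.7, 54.7 and 55.4 CPM with ZNF783 siRNA against 52.1, 51.8 and 49.0 CPM and rose by 0.13 (SE 0.044, adjusted p = 0.0256), a call that ended in DESeq2 (adjusted p = 0.115) and with all 12 libraries fitted together (0.522). With ETS1 siRNA it had 34.1, 44.1 and 44.4 CPM against 46.8, 47.2 and 47.7 CPM. All 3 lay below the controls, replicate 1 farthest, but the log2 fold changes of -0.21 over 6 libraries (SE 0.105, adjusted p = 0.334) and -0.10 without replicate 1 (SE 0.041, adjusted p = 0.0612) did not pass. SORD has a pseudogene copy, so its counts are uncertain. HPGD, which breaks down prostaglandins, and the methyltransferases GNMT and NNMT did not pass in either experiment.

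Among regulators of transcription, ELL2, a subunit of the super elongation complex, was higher with both siRNAs. It had 301, 234 and 235 CPM with ETS1 siRNA against 208, 213 and 210 CPM, and replicate 1 was far higher than replicates 2 and 3, which also lay above all controls. The log2 fold change was 0.29 over 6 libraries (SE 0.101, adjusted p = 0.232) and 0.15 without replicate 1 (SE 0.029, adjusted p = 4.56e-05), and 0.08 with the GC content and length offset as well (adjusted p = 0.0063). With ZNF783 siRNA ELL2 had 169, 170 and 176 CPM against 151, 144 and 147 CPM and rose by 0.22 (SE 0.031, adjusted p = 3.1e-07), or by 0.14 with the offset (adjusted p = 7e-05). The call ended with all 12 libraries fitted together (adjusted p = 0.18). EAF2, a partner of the ELL proteins, went the other way: it had 7.52, 6.24 and 6.94 CPM with ZNF783 siRNA against 9.21, 10.0 and 9.04 CPM and fell by 0.44 (SE 0.105, adjusted p = 0.00123). With ETS1 siRNA EAF2 had 5.39, 5.87 and 5.500 CPM against 6.90, 6.57 and 6.66 CPM, with no overlap. Its log2 fold changes of -0.26 over 6 libraries (adjusted p = 0.217) and -0.24 without replicate 1 (SE 0.098, adjusted p = 0.0664) did not pass.

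ZBTB10, a zinc finger repressor, had 679, 698 and 675 CPM with ZNF783 siRNA against 608, 594 and 605 CPM and rose by 0.18 (SE 0.024, adjusted p = 1.3e-07). It was called in all 17 alternative settings run on that experiment, and the value was 0.11 with the GC content and length offset (adjusted p = 6.53e-05). With ETS1 siRNA it had 819, 744 and 735 CPM against 747, 773 and 758 CPM, where replicate 1 was above and the other 2 below every control, and its log2 fold change was 0.01 over 6 libraries (adjusted p = 0.919) and -0.05 without replicate 1 (-0.045, adjusted p = 0.255). MAF, a leucine zipper factor, was low throughout, at 1.12, 1.13 and 1.36 CPM with ETS1 siRNA against 1.68, 1.96 and 2.39 CPM. It did not overlap between the groups and had a log2 fold change of -0.73 without siRNA replicate 1 (SE 0.182, adjusted p = 0.00157) and -0.75 over 6 libraries (SE 0.179, adjusted p = 0.147). With ZNF783 siRNA MAF had 2.87, 3.15 and 2.88 CPM against 2.73, 3.07 and 3.05 CPM (log2 fold change 0.01, adjusted p = 0.991). MED28, a Mediator subunit of which 32.1% of exon bases overlap FAM184B on the opposite strand, did not pass in either experiment.

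CENPN, a kinetochore protein that binds the centromeric nucleosome, had 112, 106 and 105 CPM with ETS1 siRNA against 92.4, 95.4 and 88.0 CPM, and all siRNA libraries were higher. CENPN had a log2 fold change of 0.23 over 6 libraries (SE 0.058, adjusted p = 0.158) and 0.19 without siRNA replicate 1 (SE 0.034, adjusted p = 1.24e-05). With ZNF783 siRNA CENPN had 137, 128 and 126 CPM against 126, 122 and 124 CPM, a difference that missed the threshold (0.08, SE 0.034, adjusted p = 0.0817). Of its exon bases 12.8% overlap CMC2 on the opposite strand. UBE2T and C1orf116, the latter known as an androgen-regulated gene of prostate, did not pass in either experiment. Over the genes called in neither experiment, the log2 fold changes with ETS1 siRNA without replicate 1 ran from -0.25 (GNMT) to 0.32 (NNMT). With ZNF783 siRNA they ran from -0.18 (KLK2) to 0.11 (HPGD).

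**Figure D4:**
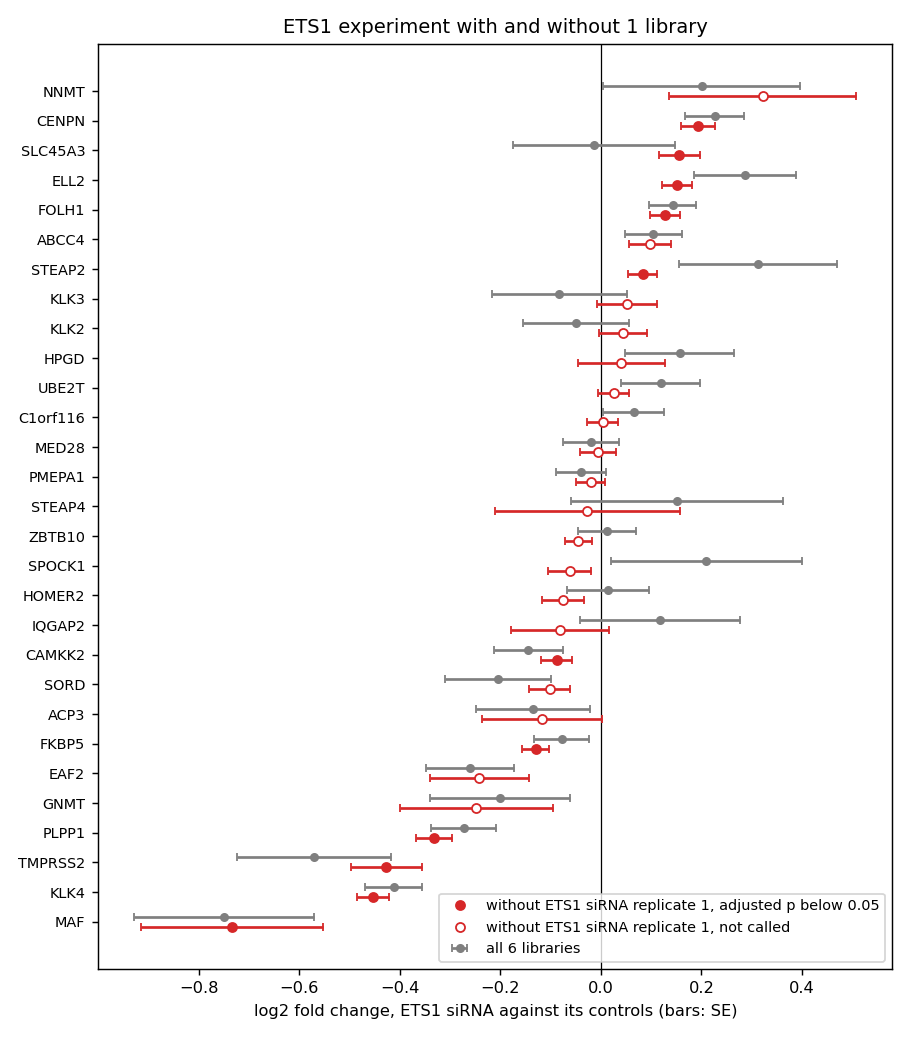
Log2 fold changes with ETS1 siRNA and their SEs, over all 6 libraries (grey) and without siRNA replicate 1 (red; filled where the edgeR adjusted p is below 0.05), for 29 of the 30 tested genes (HERC3, near the detection floor, is not drawn). The SEs are smaller without that library for most genes, and SLC45A3, STEAP2, SPOCK1 and ELL2 shift visibly.

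The responses to the 2 siRNAs were then compared directly, as the effect of ETS1 siRNA minus that of ZNF783 siRNA in 1 fit of 12 libraries. FOLH1 was the 1 gene of 30 called, against 1.68% of all genes, with a difference of 0.36 (SE 0.060, adjusted p = 0.00839). Without ETS1 siRNA replicate 1 the fit called 9 of 30, against 13.7% of all genes, 4 of them higher (6.25%) and 5 lower (7.41%). For FOLH1, KLK3, SPOCK1 and STEAP2 the difference was positive, at 0.33 for FOLH1 (adjusted p = 1.12e-07), 0.56 for KLK3 (adjusted p = 0.000221), 0.34 for SPOCK1 (adjusted p = 0.000246) and 0.15 for STEAP2 (0.145, adjusted p = 0.0112). For KLK4, FKBP5, ZBTB10, SORD and MAF it was negative, at -0.35 for KLK4 (adjusted p = 2.39e-06), -0.24 for FKBP5 (adjusted p = 1.48e-06), -0.23 for ZBTB10 (adjusted p = 1.65e-06), -0.23 for SORD (adjusted p = 0.00365) and -0.74 for MAF (adjusted p = 0.0348). KLK3 and KLK4, both kallikreins of the same cluster, thus differed between the siRNAs in opposite directions. The difference was not called for TMPRSS2 (-0.26, SE 0.109, adjusted p = 0.115), PLPP1 (-0.11, SE 0.051, adjusted p = 0.144) or ELL2 (-0.07, SE 0.040, adjusted p = 0.296), which does not show that their responses were equal. Over 12 libraries, DESeq2 called 2 differences (3.38% of all genes), the GC content and length offset 3 (3.59%), a fit without an expression filter 4 (2.3%) and limma-voom 9 (12.3%). Without ETS1 siRNA replicate 1, DESeq2 called 8 (9.31%) and the offset 12 (16.0%), 7 of them higher (7.48%) and 5 lower (8.51%).

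**Figure D5:**
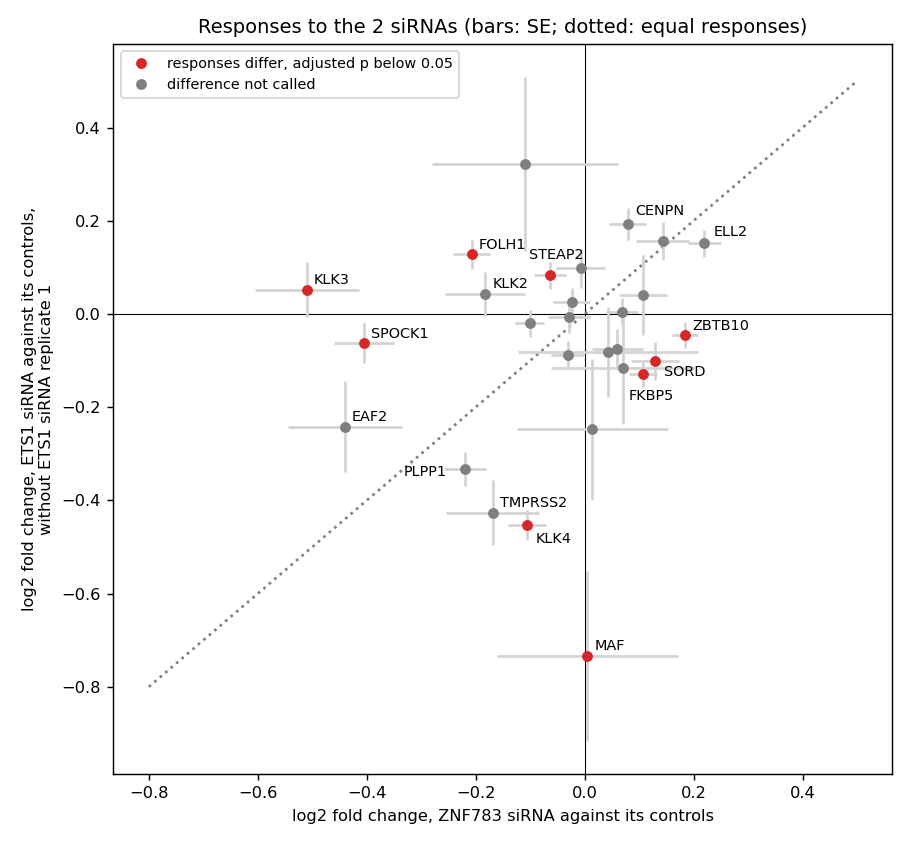
Log2 fold change with ETS1 siRNA without its replicate 1 (vertical) against that with ZNF783 siRNA (horizontal) for the 28 genes tested in both; bars are SEs, the dotted line marks equal responses, and red marks genes whose responses differ at an edgeR adjusted p below 0.05. FOLH1 and STEAP2 lie above and to the left of the origin, KLK3 at the far left near 0 on the vertical axis, and MAF and KLK4 at the bottom.

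Of a list of 20 genes of receptor function, mostly pioneer factors, coregulators and chaperones, none was called with ETS1 siRNA over 6 libraries (6 at an unadjusted p under 0.05; DESeq2 called GATA2, lower), and without siRNA replicate 1 there were 3 that rose (9.96% of all genes) and 8 that fell (13.0%). Among those with the smallest adjusted p were GATA2, a pioneer factor (-0.27, adjusted p = 1.65e-07), HSP90AB1, a chaperone of the receptor (-0.14, adjusted p = 3.19e-05) and HOXB13, a pioneer factor of prostate (-0.15, adjusted p = 5.65e-05). Over 6 libraries these were -0.26 (adjusted p = 0.143), -0.14 (0.202) and -0.25 (0.25). With the GC content and length offset and no replicate 1, GATA2 was at -0.17 (adjusted p = 4.75e-05) and HOXB13 at -0.07 (adjusted p = 0.0271). The median over the 20 genes was -0.05, against 0.00 (-0.00417) over all genes. With ZNF783 siRNA 2 rose (11.3% of all genes) and 4 fell (13.8%), with a median of 0.00 (-0.00367) against 0.00 (0.00172) over all genes. GATA2 fell by 0.36 (adjusted p = 3.69e-12), from 183, 197 and 184 CPM to 148, 145 and 148 CPM. The coactivators NCOA3 and NCOA2 rose by 0.25 (adjusted p = 1.11e-06) and 0.21 (adjusted p = 4.26e-05).

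A further 71 androgen response genes, all tested, went both ways. With ETS1 siRNA none was called over 6 libraries (25 at an unadjusted p under 0.05; DESeq2 called 7 higher and 4 lower, against 3.76% of all genes in either direction), and without siRNA replicate 1 there were 21 that rose (9.96% of all genes) and 13 that fell (13.0%), with a median of 0.01 against 0.00 (-0.00417) over all genes. KRT19, a keratin that like KRT8 is also among the luminal markers, fell by 0.53 (adjusted p = 5.15e-21), while ELK4, itself an ETS factor, rose by 0.49 (adjusted p = 2.52e-17), the kinase gene RPS6KA3 rose by 0.31 (adjusted p = 2.02e-11) and the phosphatase gene INPP4B rose by 0.43 (0.425, adjusted p = 3.89e-10). Over 6 libraries their log2 fold changes were -0.59, 0.48, 0.38 and 0.55, with adjusted p-values of 0.0549, 0.0504, 0.107 and 0.108. With ZNF783 siRNA 21 rose (11.3% of all genes) and 12 fell (13.8%). With the GC content and length offset 14 rose and 15 fell, against 19.4% of all genes in either direction. Without the offset the median was 0.01, against 0.00 (0.00172) over all genes. HMGCS1 of the cholesterol pathway rose by 0.45 (adjusted p = 8.72e-16), ELK4 by 0.27 (adjusted p = 3.6e-10) and the lipase gene ABHD2 by 0.26 (adjusted p = 4.3e-10), and KRT8, a luminal keratin, fell by 0.26 (adjusted p = 9.28e-11).

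The remaining lists of the pathway were small. Beside their calls, 9.96% of all genes rose and 13.0% fell with ETS1 siRNA without replicate 1. With ZNF783 siRNA 11.3% of all genes rose and 13.8% fell. Of the glucocorticoid receptor NR3C1 and 6 of its targets, NR3C1 rose by 0.15 (adjusted p = 0.00239) and TSC22D3 and KLF9 fell, by 0.16 (adjusted p = 0.00832) and 0.15 (adjusted p = 0.013), with ETS1 siRNA without replicate 1, while SGK1 did not pass (0.24, adjusted p = 0.137). With ZNF783 siRNA, ZBTB16 rose by 0.20 (adjusted p = 8.9e-06) and DUSP1, SGK1 and PER1 fell, by 0.29 (adjusted p = 4.57e-08), 0.37 (adjusted p = 0.0254) and 0.11 (adjusted p = 0.0491). The calls of SGK1 and PER1 ended in DESeq2 (adjusted p = 0.136 and 0.17). Of 14 genes of steroid metabolism, 7 were tested with ETS1 siRNA and 5 with ZNF783 siRNA: STS, steroid sulfatase, rose by 0.27 (adjusted p = 0.00281) with ETS1 siRNA without replicate 1, and HSD17B6 fell by 0.46 (adjusted p = 0.0128) with ZNF783 siRNA, where DESeq2 gave it no adjusted p. Of 10 androgen-repressed genes, 3 and 2 were tested, and DDC fell by 0.71 (adjusted p = 0.00337) with ETS1 siRNA without replicate 1 and MET by 0.35 (adjusted p = 0.000545) with ZNF783 siRNA. The medians of these lists were -0.01, -0.01 and -0.15 with ETS1 siRNA without replicate 1 and -0.02, -0.06 and -0.24 with ZNF783 siRNA. Medians over all genes were 0.00 (-0.00417) and 0.00 (0.00172), and those of the androgen-repressed list rest on only 3 and 2 genes. Over all 6 libraries of the ETS1 experiment edgeR and DESeq2 called none of these genes (DESeq2 gave no adjusted p for SGK1 and DDC), with 4, 1 and 1 at an unadjusted p under 0.05 in edgeR and the smallest adjusted p at 0.138 (DDC). With the GC content and length offset NR3C1 and PER1 were not called.

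Some measures of the libraries moved with the siRNAs. The summed level of the 5 luminal markers was 1540 to 1660 CPM with ETS1 siRNA against 1850 to 1900 CPM in its controls, and 1950 to 2020 CPM with ZNF783 siRNA against 2250 to 2300 CPM. The 5 neuroendocrine markers summed to 144 to 194 against 227 to 235 CPM and to 225 to 241 against 266 to 275 CPM, with 3 or 4 of the 5 at 1 CPM or above in each group, and the 5 fibroblast markers to 59.5 to 70.6 against 59.9 to 62.3 CPM and to 36.4 to 39.8 against 42.8 to 46.5 CPM, with 2 or 3 of the 5 at 1 CPM or above. Of the 5 luminal markers, edgeR called the keratins KRT8, KRT18 and KRT19 lower with ETS1 siRNA without replicate 1 (13.0% of all genes), but not EPCAM or CDH1. Over all 6 libraries of that experiment it called none of them. With ZNF783 siRNA it called these keratins and CDH1 lower (13.8% of all genes), but not EPCAM. In these bulk libraries fewer cells of a kind and less RNA per cell cannot be told apart. The log2 fold change also followed the GC content of genes. Across all genes, which are not independent replicates, Spearman's rho was -0.36 with ETS1 siRNA without replicate 1 (-0.50 with it) and -0.38 with ZNF783 siRNA. The genes described here had a median GC content, taken from the longest transcript of each gene, of 44.3%, against 48.1% over all genes tested with ETS1 siRNA. With an offset for GC content and gene length the ZNF783 fit called 13 of 28 genes, 9 of them shared with the 12 above, against 19.4% of all genes. C1orf116 and CENPN, then higher, and STEAP2 and UBE2T, then lower, passed with it, with log2 fold changes of 0.08, 0.09, -0.15 and -0.10, while KLK4, FKBP5 and PMEPA1 did not. The same offset without ETS1 siRNA replicate 1 called 13 of 31 in the ETS1 fit, 4 higher (8.78% of all genes) and 9 lower (10.8%), against 19.6% in either direction, and DESeq2 without that library called 9 (14.6%). EAF2, HOMER2, SORD and ZBTB10 then also fell, by 0.32, 0.13, 0.10 and 0.12, while STEAP2 and CAMKK2 did not pass. The part of the marker levels in the results was not tested.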

How the data were processed

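The authors deposited unnormalized counts, 1 table per siRNA experiment. Per the file headers, the authors counted paired-end alignments over exons with featureCounts 2.0.1 against release 107 of the GRCh38 annotation, with no strand option; the libraries were made with a directional kit, per the labels' protocols, and alignment was with a tool the headers name only as hisat, of unstated version. Symbols were matched by gene identifier. Counts were scaled by TMM and tested with edgeR 4.0.16 (robust quasi-likelihood F test, default expression filter) in R 4.3.3, each siRNA against its own controls, and the 2 effects against each other over 12 libraries. P-values were adjusted by Benjamini-Hochberg over all genes tested, with a call below 0.05. Levels are TMM-scaled CPM; levels between genes are divided by GENCODE 29 exon length, because the tables used here have no length column. GC content and coordinates come from the same annotation. DESeq2 1.42.0 and limma 3.58.1 (voom with quality weights) were alternatives, as were other scalings, filters and thresholds, a replicate block, a GC content and length offset, and leaving out each library. The fits were also run on simulated counts with known changes, where each gene had the same spread in all libraries. Those counts held no deviating library and no relation to GC content, so that run does not bear on either feature. The genes and the lists were chosen with earlier results of these data known. Named with the value in every library are KLK3, KLK2, TMPRSS2, FKBP5 and each gene called in one of the 3 fits or in the ETS1 fit without 1 library; other genes are given by ranges and counts, and up to 4 genes of each pathway list by smallest adjusted p. Results for some genes that this rule would name are left out.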

Additional observations from a re-analysis of the deposited data

Results flagged for a closer look

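FOLH1 was flagged because its responses to the 2 siRNAs differed in a direct test. The effect of ETS1 siRNA minus that of ZNF783 siRNA was 0.36 (0.3637) on the log2 scale, with an SE of 0.060 and an edgeR adjusted p of 0.00839. FOLH1 was higher than every control in 3 of 3 ETS1 siRNA libraries and lower than every control in 3 of 3 ZNF783 siRNA libraries. The call was present in 23 of 24 alternative settings, the exception being the replicate block.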

How the results depend on the processing

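For ETS1 siRNA the count of called genes was 0 with edgeR over 6 libraries and moved to 1 without an expression filter, 3 with DESeq2, 7 in the fit of all 12 libraries and 9 with limma-voom. Leaving out 1 library at a time gave 0 to 11 calls, with 11 only without ETS1 siRNA replicate 1; without it, and chosen after seeing the data, DESeq2 called 9 and the GC content and length offset 13. SLC45A3 turned from -0.01 to 0.16 (0.1557) without that library, 0.16 (0.1619) with DESeq2 and 0.25 (0.2528) with the offset, which also turned HOMER2 to -0.13 (-0.129) and ZBTB10 to -0.12 (-0.1156). For ZNF783 siRNA the 12 calls became 4 in the fit of all 12 libraries, 9 with DESeq2, 14 with upper-quartile scaling, 15 with library size alone, and 9 to 13 when 1 library was left out, and KLK4 turned to 0.00959 with the offset. The single call of a difference between the siRNAs became 2 with DESeq2, 3 with the offset, 4 without an expression filter and 9 with limma-voom. Leaving out 1 library gave 1 to 9, with 9 only without ETS1 siRNA replicate 1, where DESeq2 called 8 and the offset 12. Deviations of same-numbered libraries from their group means correlated at -0.04 to 0.06, and those of other pairs at -0.09 to 0.08. These correlations cannot decide whether the numbers pair the samples, because deviations from a mean of 3 libraries are tied to each other. With the replicate block the calls were 0 for ETS1 siRNA, 12 for ZNF783 siRNA and 0 for the difference. Over all genes that block called 0 of 19542, 4476 of 17630 and 54 of 19594. The cause of these moves was not tested. At 13518177 to 48996691 counts per library, genes near the floor, such as TRPM8 and ADAM7, failed the default expression filter in the main fits.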
